A study of Homo sapiens with 12 samples.

Results

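The olfactory receptor genes of human chromosome 11 are described here as a binding landscape for the nuclear receptor PPARγ. They were taken as the protein-coding genes of that chromosome whose symbol is OR, a number, letters and a number, and 171 of the genes in the RefSeq table of GRCh38 met this rule. OR8U8, OR8U9 and OR9G9 are placed in that table on an alternate scaffold, which leaves 168 members with a position on chromosome 11, beside 1129 other protein-coding genes there and 19817 protein-coding genes on chromosomes 1 to 22 and X. A peak was assigned to the receptor genes when its summit, the position of highest signal in the peak, lay within 50 kb of any member's span, and each peak was counted once. By this count the list called on the pooled wild-type libraries held 15 such peaks of 1186 on chromosome 11, and the pooled KQ list held 2 of 119.

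The series is a chromatin immunoprecipitation sequencing study of MCF10A-NeuT, a human mammary epithelial line (MCF10A) that carries NeuT, an activated form of the rat ERBB2 receptor. The labels give 12 libraries in 6 groups of 2, and peak lists of 4 of them were used: 2 from cells with PPARg WT and 2 from cells with PPARg K154/155Q, called KQ in the labels, plus 1 pooled list for each of these groups. Both lines were made by infection with retrovirus from the vector pMSCV-IRES-GFP, so both add an expressed PPARγ to whatever the cells make from their own gene. Input libraries and the ChIP libraries of the vector control line were not analysed here. The labels differ on the pull-down, naming a PPARγ antibody in the sample fields and an anti-Flag antibody in the design text, and they call the mutant acetylation deficient. They do not say whether the libraries of a group came from separate cultures, so p-values over libraries measure the spread between these samples, which may be technical. The lists hold no expression values, so the cell type could not be checked against its markers, and they hold no read totals, so sequencing depth is unknown. Across chromosomes 1 to 22 and X, 18143 and 17859 peaks were called with wild type, and 1263 and 1035 with KQ.

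Olfactory receptors are G protein-coupled receptors of sensory neurons in the nose, where each neuron uses a single receptor gene and keeps the rest silent. The genes are small, usually with an intronless coding region, and lie in long tandem arrays that formed by duplication. In most other tissues these arrays are silent and packed in compact chromatin. Class I receptors resemble those of fish and sit in the array on the short arm that also surrounds the beta globin genes, while class II receptors form the other arrays. PPARγ, which pairs with RXR on a direct repeat of the half-site AGGTCA, is best known as a regulator of fat storage and fatty acid use.

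Starting a new cluster wherever consecutive members lay more than 1 Mb apart gave 7 clusters. The largest ran from OR52B4 to OR10A3 (chromosome 11, 4367263 to 7941708, hg38) with 67 genes, 55 of them class I. The second largest ran from OR4C46 to OR5AK2 (54603069 to 56989843) with 48 class II genes. A cluster of 21 genes ran from OR9Q1 to OR10V1 (58023881 to 59713845) and one of 22 from OR6X1 to OR8A1 (123753580 to 124571374). The small groups were 7 genes from OR4B1 to OR4A47 (48216810 to 48489722), the pair OR4C13 and OR4C12 (49952391 to 49982535), and OR2AT4 alone (75081753 to 75096890). OR2AT4 is a receptor for a synthetic sandalwood odorant and is known from skin keratinocytes.

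Wild-type PPARγ peaks were sparse around the olfactory receptor genes. The merged receptor windows covered 6.53 Mb and the merged windows of the other genes 90.2 Mb. Wild-type library 1 had 10 peaks in receptor windows, or 1.53 per Mb, against 7.98 per Mb around other genes. Wild-type library 2 had 14, or 2.14 per Mb, against 7.86 per Mb. At the density of the other genes the receptor windows would have held 52.2 and 51.4 peaks, so the density was 5.22 and 3.67 times lower. The mean log2 ratio of the densities was -2.13 ± 0.36 (SD, n = 2 libraries), and the gap was larger than the spread between the libraries. The pooled wild-type list gave 2.30 per Mb against 10.9 per Mb.

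The KQ libraries had too few peaks to show a gap of this size. Both had 0 peaks in receptor windows, which allows up to 3 peaks or 0.459 per Mb in each. Around other genes their densities were 0.444 and 0.344 per Mb, so the receptor windows would have held 2.90 and 2.25 peaks at that density, below what a count of 0 allows. The pooled KQ list had 2 peaks where that density would give 6.81. Over all 4 libraries the mean difference in density was -3.24 peaks per Mb (exact sign-flip permutation test, two-sided, p = 0.125, n = 4, the smallest possible), but a count of 0 fixes the sign of the KQ libraries. Over the wild-type libraries alone the mean difference was -6.09 peaks per Mb, lower in 2 of 2 (exact sign-flip permutation p = 0.5, n = 2, the smallest possible).

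Receptor windows also held fewer wild-type peaks than chromosome 11 far from any gene. Stretches more than 50 kb from every protein-coding gene had 3.57 and 3.43 peaks per Mb in wild-type libraries 1 and 2, and 4.94 in the pooled list. Their length counts every base between genes, repeats and the centromere included. Measured against them, the receptor windows of the wild-type libraries had a mean log2 density ratio of -0.95 and a mean density difference of -1.66 peaks per Mb, lower in 2 of 2 (exact sign-flip permutation test on the density differences, two-sided, p = 0.5, n = 2, the smallest possible). In the KQ libraries these stretches had 0.248 and 0.223 peaks per Mb, under the 0.459 that a count of 0 allows in receptor windows.

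**Figure D1:**
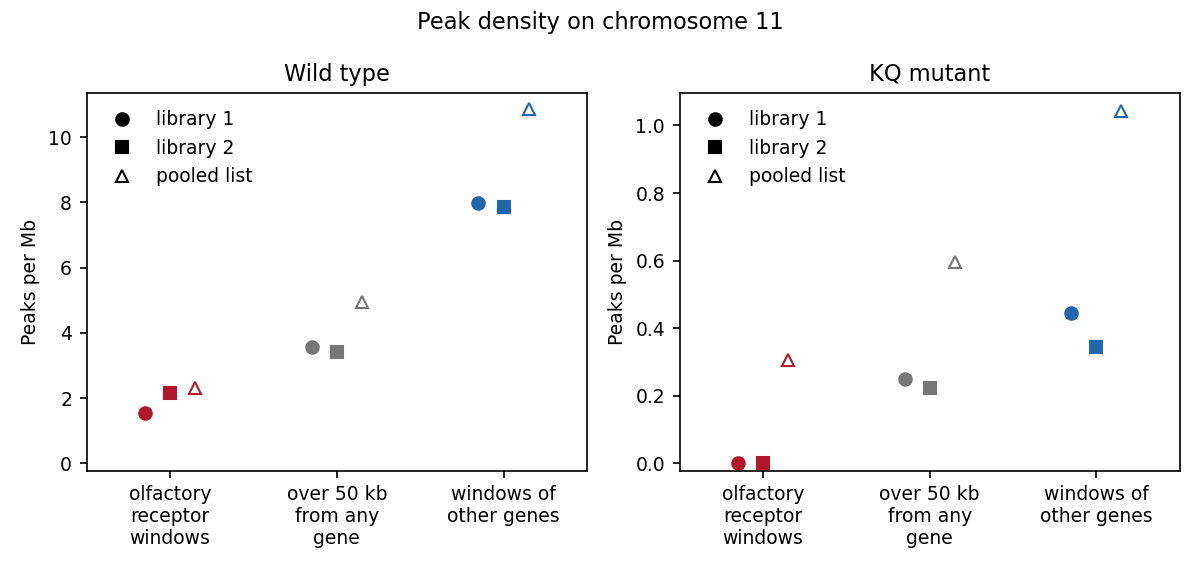
Peaks per Mb (vertical axes, different scales) in the wild-type lists (left) and the KQ lists (right) for olfactory receptor windows, stretches over 50 kb from any gene, and windows of other genes of chromosome 11. Circles and squares are single libraries and triangles the pooled lists. The wild-type libraries sit at 1.53 and 2.14 in receptor windows against 7.98 and 7.86 around other genes, and both KQ libraries are at 0 in receptor windows.

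Some receptor windows overlap those of other genes. Receptor windows that no other protein-coding gene shared covered 4.36 Mb and had 7 pooled wild-type peaks, or 1.61 per Mb. The shared parts covered 2.17 Mb and had 8, or 3.69 per Mb. In library 1 the shared parts had 4 peaks (1.84 per Mb) and the unshared parts 6 (1.38 per Mb), and in library 2 they had 6 (2.76 per Mb) and 8 (1.83 per Mb). The order of these densities rests on OR2AT4. Without that gene the shared parts had 0 peaks against 6 in library 1 and 3 (1.44 per Mb) against 8 (1.85 per Mb) in library 2, while the pooled list still had 1.92 against 1.62 per Mb. The difference was not tested.

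Most members had no wild-type peak nearby. In the pooled wild-type list 29 of 168 receptor genes (17.3%) had a peak within 50 kb, where 64.8% of all protein-coding genes of chromosome 11 did. In wild-type library 1 it was 22 genes (13.1%, against 57.4% of all genes of the chromosome) and in library 2 it was 29 (17.3%, against 58.1%). Counting only pooled peaks found in both wild-type libraries left 8 receptor genes (4.76%, against 37.4%). Neighbouring members share peaks, so these genes are not independent. Among the members, 25 had 1 pooled wild-type peak, 3 had 2, OR2AT4 had 4 and 139 had 0. The members with 2 were OR52B2, OR52W1 and OR9Q1, and OR9Q1 has a long annotated span of 157736 bp. Counting all 6 lists, 123 members had no peak at all.

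Receptor genes were also compared with other genes of small size. The median span was 1103 bp for the members and 18221 bp for the other genes. Other genes with spans of at most 10 kb had a pooled wild-type peak in 264 of 386 cases (68.4%), and the difference from the receptor genes was -51.1 percentage points, against -54.7 points with all other genes. The 219 olfactory receptor genes of other chromosomes had a pooled wild-type peak in 46 cases (21.0%, where all protein-coding genes of chromosomes 1 to 22 and X had one in 67.5%).

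Distances to the nearest peak were longer for receptor genes. The median distance from a receptor gene to the nearest pooled wild-type summit was 255 kb, with quartiles of 91.0 and 706 kb. For other genes of the chromosome the median was 17.9 kb, and for those with spans of at most 10 kb it was 26.5 kb. A distance of over 500 kb was found for 59 receptor genes (35.1%) and 13 other genes (1.15%). In wild-type library 1 it was 56 receptor genes (33.3%) and 23 other genes (2.04%), and in library 2 it was 30 (17.9%) and 17 (1.51%). Per library the receptor median was 307 kb in wild-type library 1 and 230 kb in library 2, against 26.8 and 25.7 kb for other genes. The pooled KQ list, with its fewer peaks, gave medians of 1127 and 315 kb.

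**Figure D2:**
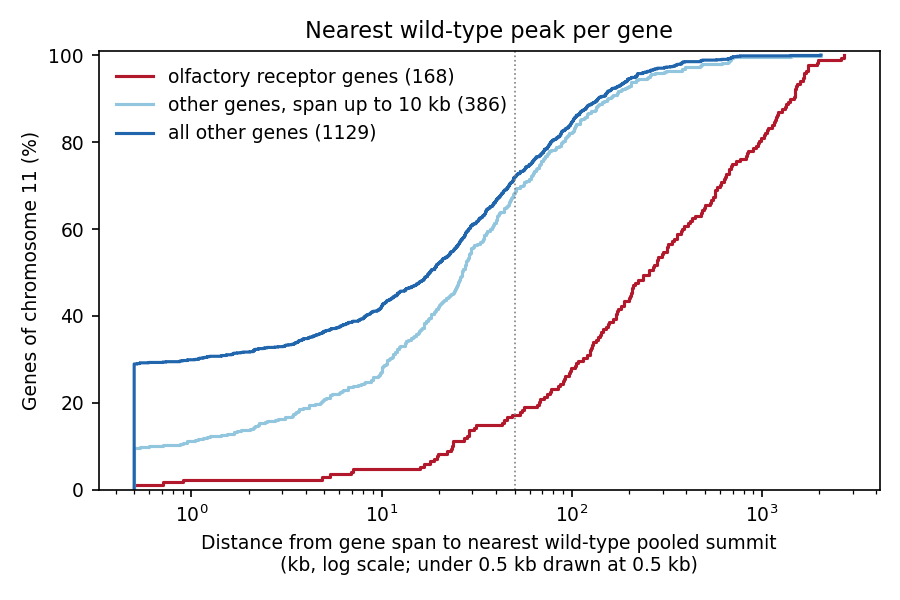
Cumulative share of chromosome 11 genes (vertical axis, %) by the distance from the gene span to the nearest pooled wild-type summit (horizontal axis, kb, log scale) for 168 olfactory receptor genes, 386 other genes with spans of at most 10 kb and all 1129 other genes. The dotted line marks 50 kb, where the receptor curve stands at 17.3% and the curve of short other genes at 68.4%.

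The clusters differed from one another. The array from OR4C46 to OR5AK2, with 48 genes, had 0 pooled wild-type peaks in 1.72 Mb of windows, where the density of other genes would give 18.7. Wild-type library 1 had 0 there and library 2 had 1, a peak of fold enrichment 5.24 some 8.45 kb from OR4C11. Fold enrichment is the authors' value for the signal at a summit over the peak caller's background. The array from OR6X1 to OR8A1, with 22 genes, also had 0 pooled wild-type peaks (9.52 at the density of other genes) and 1 in library 2 (fold 5.44), which lay 0.415 kb outside the zinc finger gene ZNF202. The 7 genes from OR4B1 to OR4A47 had 0 peaks in every list. Together these clusters hold 77 members with no pooled wild-type peak within 50 kb. In the pooled list the upper limit of 3 peaks for a count of 0 lies below the value given by the density of other genes in each of them. For the genes from OR4B1 to OR4A47 that value was 2.80 and 2.76 in wild-type libraries 1 and 2, below what a count of 0 allows.

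The longest stretch of chromosome 11 without a pooled wild-type summit lay across the OR4C46 to OR5AK2 array. It ran over 7.12 Mb, from the summit at 50187277 to that at 57311715, and held 48 receptor genes and 4 other genes. The centromere lies within this interval. In wild-type library 1 the longest stretch, 7.09 Mb, began at 50187280 and ended at 57278389. In library 2 the longest one, 5.38 Mb, ended at the OR4C11 peak and held 7 receptor genes. The next longest stretch of the pooled list was 3.22 Mb and held 0 receptor genes, against a median spacing of 36.4 kb between neighbouring summits of the chromosome.

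The remaining clusters carried the pooled peaks. The OR52B4 to OR10A3 array on the short arm holds 55 class I and 12 class II genes. It had 6 pooled wild-type peaks, with 2 in library 1 and 5 in library 2. The density of other genes would give 26.0, 19.1 and 18.8 there. The OR9Q1 to OR10V1 array had 4 pooled peaks against 10.3, with 3 and 4 in the libraries. The window of OR2AT4 had 4 pooled peaks against 1.25, with 4 in library 1 and 3 in library 2, so this lone gene exceeded the density of other genes. Without OR2AT4 the receptor windows had 11 pooled wild-type peaks against 69.7, and 6 and 11 in the libraries. Of the class I genes 12 of 55 (21.8%) had a pooled wild-type peak, and of the class II genes 17 of 113 (15.04%), where 64.8% of all genes of the chromosome did. This order held in neither library: class I and class II shares were 12.7% and 13.3% in library 1 (57.4% of all genes) and 12.7% and 19.5% in library 2 (58.1% of all genes).

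**Figure D3:**
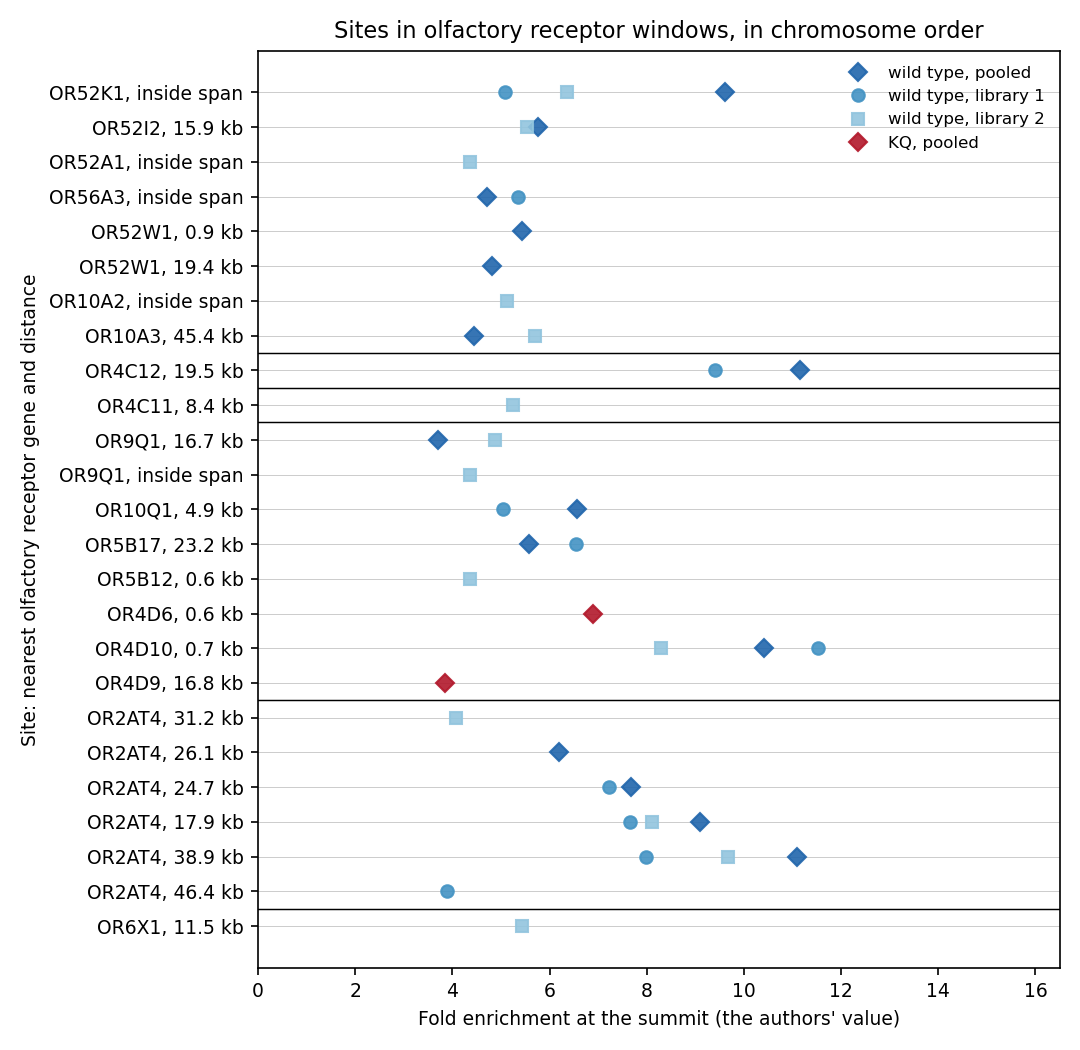
Fold enrichment (horizontal axis, the authors' value) at the 25 sites where any list had a peak within 50 kb of an olfactory receptor gene, in chromosome order, named by the nearest receptor gene and the distance to its span (vertical axis). Symbols mark the list, horizontal lines separate clusters, and a missing symbol means that no peak was called. Symbols from both wild-type libraries appear at 4 sites (OR52K1, OR4D10 and 2 of the OR2AT4 sites), and the KQ symbols stand alone at OR4D6 and OR4D9.

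Joining overlapping peaks of all lists gave 25 sites. Of these, 15 were in the pooled wild-type list, 8 were called in a single wild-type library and not in the pool, and 2 were in the pooled KQ list and in no wild-type list. Of the 15 pooled wild-type sites, 4 were called in both libraries (26.7%, 95% exact binomial interval 7.79 to 55.1), 8 in 1 library and 3 in neither. Around other genes 343 of 980 pooled peaks (35.0%) were in both libraries, a share inside that interval. Intervals over peaks cover counting error only.

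The 4 sites called in both wild-type libraries were among the 5 of highest pooled fold. The OR52K1 site (4493279 to 4493508) lies inside the annotated span of this class I gene, 10740 bp from its annotated start. Its fold was 5.09 in library 1, 6.36 in library 2 and 9.61 in the pool. The OR4D10 site (59479950 to 59480163) lies 706 bp outside that class II gene. Its fold was 11.5 in library 1, 8.29 in library 2 and 10.4 in the pool, and 5 receptor genes lie within 50 kb of it: OR5A1, which responds to the violet odorant beta-ionone, OR4D6, OR4D10, OR4D11 and OR4D9.

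The other pair lies on either side of OR2AT4. The site 17.9 kb from the gene (75063768 to 75064028) had folds of 7.65, 8.11 and 9.09 in library 1, library 2 and the pool, and the site 38.9 kb from it on the other side (75135742 to 75135941) had 7.99, 9.67 and 11.1. The nearest other genes of these sites are NEU3, a sialidase, at 43.2 kb and SLCO2B1, an organic anion transporter, at 15.3 kb. No list had a KQ peak at any of these sites.

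The highest pooled fold among the receptor windows was at a site called in only 1 of the wild-type libraries. The peak 19.5 kb from OR4C12 (50001970 to 50002189) had a fold of 11.2 in the pool and 9.41 in library 1, and none was called there in library 2. Its nearest other protein-coding gene, FOLH1, lies 793 kb away. It ranked 123 by fold among the 1186 pooled wild-type peaks of the chromosome, whose highest fold was 27.5. The other pooled sites among the 10 of highest fold lay near OR2AT4 (folds 7.68 and 6.20), OR10Q1 (6.56), OR52I2 (5.77) and OR5B17 (5.58), each called in 1 library except the OR2AT4 site of fold 6.20, which was called in neither.

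Pooled summits inside or within 1 kb of a receptor gene were few. Besides OR52K1 and OR4D10, the class I genes OR56A3 and OR52W1 had one each. The OR56A3 summit lies in an annotated span of 79760 bp, 50118 bp from its annotated start and closer to the compact genes OR52L1 (5.38 kb) and OR56A4 (7.08 kb). Its fold was 4.70 in the pool and 5.35 in library 1. The OR52W1 summit lay 899 bp from the gene with a pooled fold of 5.42 and was called in neither library. A second OR52W1 site, 19.4 kb away with a pooled fold of 4.81, lies inside FHIP1B and was likewise called in neither. In all, 4 of 168 members (2.38%) had a pooled wild-type summit inside their span or within 1 kb. The share was 29.9% for all other genes of the chromosome and 11.1% for those with spans of at most 10 kb. Of the 4 members, OR56A3 and OR52K1 have spans over 10 kb.

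The fold of the peaks in receptor windows was compared with that of other peaks of the same list. In library 1 the median fold was 6.88 in receptor windows and 6.18 around other genes, and in library 2 it was 5.34 and 5.84. The difference of the median log2 folds was 0.15 in library 1 and -0.13 in library 2, a mean of 0.01 ± 0.20 (SD), so the libraries differed in sign (exact sign-flip permutation test, p = 1, n = 2, where 0.5 is the smallest possible). Folds of at least 10 were found for 3 of 15 pooled peaks in receptor windows (20%) and 148 of 980 around other genes (15.1%).

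With the KQ mutant the receptor genes had 2 peaks, both in the pooled list and in neither KQ library. The peak at 59456312 to 59456478 had a fold of 6.90 and lay 565 bp before the start of OR4D6, a class II gene. The peak at 59537349 to 59537512 had a fold of 3.85 and lay 16.8 kb from OR4D9 and 36.9 kb from OSBP, which encodes oxysterol-binding protein. Both are in the array where wild type had its OR4D10 peak, and neither overlapped a peak of any wild-type list. Their windows take in 6 receptor genes (3.57% of members, against 14.8% of all genes of the chromosome). In KQ libraries 1 and 2 it was 0 members, against 7.4% and 5.71% of all genes. In reverse, 0 of 15 pooled wild-type peaks in receptor windows overlapped a pooled KQ peak, which allows a share of up to 20%, and around other genes 80 of 980 (8.16%) did.

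The receptor share of the peaks could not be told apart between the groups at this number of peaks. Counts per library were 10 and 14 for wild type (12 ± 2.83, SD, n = 2) and 0 and 0 for KQ, at least 4-fold higher in the wild-type mean when KQ is set at 3 peaks per library (exact permutation test, two-sided, p = 0.333, n = 2 per group, the smallest possible). As a share of the chromosome's peaks, wild-type library 1 had 1.15% and library 2 had 1.64%. The KQ libraries had 0 of 50 and 0 of 40 peaks (exact permutation p = 0.333, n = 2 per group). At 3 peaks each this allows shares of up to 6% and 7.5%, and the 95% exact binomial intervals reach 7.11% and 8.81%. The pooled lists had 1.26% for wild type (95% exact binomial interval 0.710 to 2.08) and 1.68% for KQ (0.204 to 5.94). When the pooled wild-type list was shortened by q to the 2846 peaks of the KQ list, 2 of its 142 peaks on the chromosome (1.41%) lay in receptor windows, as did 2 of 119 for KQ. Both wild-type peaks of that shortened list lay in the window of OR2AT4. That gene was the 1 member (0.595%) with a peak within 50 kb, against 17.5% of all genes of the chromosome.

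Genes of other kinds inside the receptor clusters had shares between those of the receptors and those of all genes of the chromosome. Of 61 such genes 33 (54.1%) had a pooled wild-type peak within 50 kb, 25 (41.0%) in library 1 and 30 (49.2%) in library 2, against 64.8%, 57.4% and 58.1% of all genes of chromosome 11. Counting only pooled peaks found in both wild-type libraries left 8 (13.1%), against 37.4% of all genes of the chromosome and 4.76% of the receptors. Neighbours among these genes share peaks, such as ILK and TAF10, so they are not independent. OSBP, at the edge of the OR9Q1 to OR10V1 array, had 3 pooled wild-type peaks with a highest fold of 16.3 and 2 pooled KQ peaks with a highest fold of 4.80. PPFIBP2, a liprin scaffold gene among the class II members of the OR52B4 to OR10A3 array, had 4 with a highest fold of 10.1. It had 1 KQ peak of fold 5.75. The beta globin genes HBB, HBD, HBG1, HBG2 and HBE1 in the same array had 0 peaks in every list. OSBP and PPFIBP2 were chosen after their values were seen, and the difference between these genes and the receptors was not tested.

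Around the 4 clusters of 20 or more receptor genes the wild-type peak density was lower inside than in each flank zone. From edge to edge with 50 kb on each side, genes of all kinds included, they had 28 pooled wild-type peaks or 3.16 per Mb. From 50 to 250 kb outside it was 6.25 per Mb (10 peaks), from 250 to 500 kb 8.5 (17), from 500 to 1000 kb 7.88 (31) and from 1000 to 2000 kb 12.3 (74). In library 1 the density was 2.26 per Mb inside and 3.75 in the first flank, and in library 2 it was 2.82 and 3.75. The pooled KQ list had 0.564 per Mb inside (5 peaks), 0 from 50 to 250 kb, then 1.5 (3 peaks), 1.02 (4) and 0.833 (5), so its first flank was below the inside.

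**Figure D4:**
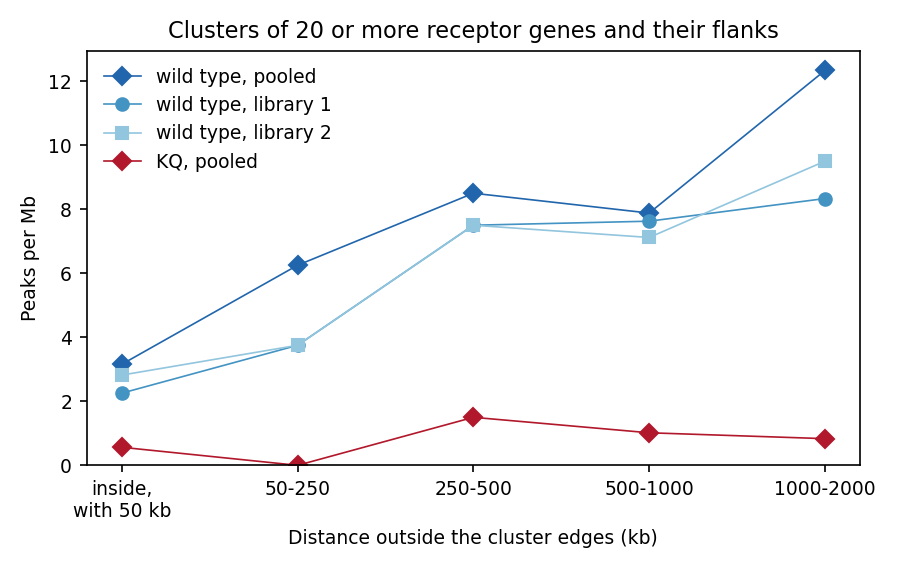
Peaks per Mb (vertical axis) inside the 4 clusters of 20 or more olfactory receptor genes, taken edge to edge with 50 kb on each side, and in zones outside their edges (horizontal axis, kb). The pooled wild-type list goes from 3.16 inside to 12.3 in the outermost zone, and the pooled KQ list stays at or below 1.5.

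Other gene groups give the scale of the receptor values. The genes that carry the olfactory signal or take part in receptor choice, such as the G protein GNAL, the cyclase ADCY3 and the factors LHX2 and EBF1, had a pooled wild-type peak in 15 of 22 cases (68.2%), where 67.5% of all genes of chromosomes 1 to 22 and X did. In wild-type libraries 1 and 2 it was 13 (59.1%) and 11 (50%), against 59.3% and 61.1% of all genes of these chromosomes. EBF1, which also acts in fat cell differentiation, had 14 pooled wild-type peaks with a highest fold of 18.7 and 3 KQ peaks. Its window is wide, as its span runs from 158695920 to 159099916 on chromosome 5. CNGA4, a channel subunit of olfactory neurons that lies in the OR52B4 to OR10A3 array, had 2 with a highest fold of 5.42. These are the pooled sites near OR52W1 given above, and neither was called in a wild-type library. ADCY3 and CNGA2 had 0 pooled wild-type peaks. Of the families of chromosome 11 with tissue-restricted members, TRIM genes had a pooled wild-type peak in 4 of 23 cases, MS4A genes in 7 of 16, KRTAP5 genes in 6 of 11, MRGPR genes in 4 of 8 and MMP genes in 3 of 10, where 64.8% of all genes of the chromosome had one. Several of these TRIM genes lie inside the receptor arrays. Of the 4 with a pooled wild-type peak, TRIM68 lies inside an array and TRIM66, TRIM44 and TRIM29 lie outside. The other TRIM genes outside the arrays, such as TRIM77 and TRIM49, had 0. In wild-type libraries 1 and 2 the counts were 6 and 5 for TRIM, 7 and 7 for MS4A and 6 and 6 for KRTAP5. For MRGPR they were 3 and 1 and for MMP 3 and 6, where 57.4% and 58.1% of all genes had one. Of 17 fatty acid and PPAR-linked genes of the chromosome, 17 had a pooled wild-type peak (64.8% of all genes of the chromosome) and 7 a pooled KQ peak (14.8% of all). In wild-type libraries 1 and 2 it was 17 and 15 genes (57.4% and 58.1% of all). Neighbouring genes of these groups share peaks, such as APOA1 and APOC3, so the genes are not independent. CPT1A, which carries fatty acids into mitochondria, had a wild-type fold of 26.1.

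**Figure D5:**
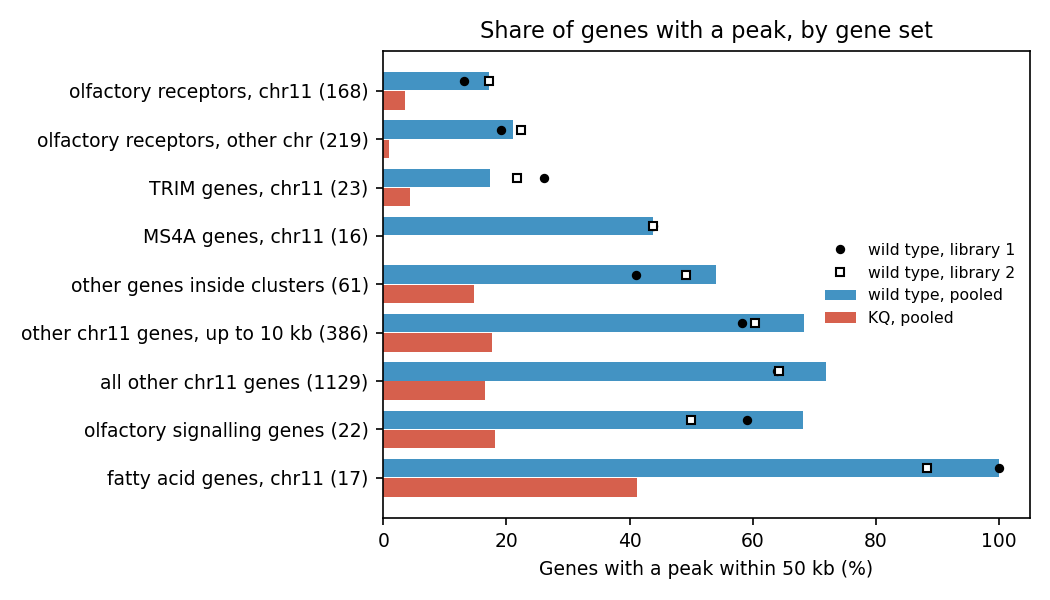
Share of genes with a peak within 50 kb (horizontal axis, %) in the pooled wild-type list and the pooled KQ list (bars) and in the wild-type libraries (circles and squares), with the number of genes of each set in parentheses. The olfactory receptor genes of chromosome 11 stand at 17.3% and those of other chromosomes at 21.0% with wild type, against 71.9% for all other genes of chromosome 11.

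The promoter sequences of the receptor genes differ from those of most genes. The RefSeq promoter table (GRCh38.p14) held 135 of the 168 members, and the 250 bases before the annotated start were read. Their median GC content was 36.4%, against 58% for the 27305 genes of the table, and 48 of the 135 (35.6%) had no CpG, against 6.39% of all. The PPAR half-site AGGTCA, on either strand, was in 15 of the 135 (11.1%) and in 12.1% of all promoters of this length. A direct repeat of that half-site with any 1 base between the copies was in 0 of the 135 and in 5 of 27305. TAATTA, a core bound by homeodomain factors such as LHX2, was in 31 of the 135 (22.96%) and in 4.49% of all. TAATTA holds only A and T, and the receptor promoters had the lower GC content. Whether its share exceeds what base composition alone would give was not tested. The remaining motif searched for was TCCC followed by GGGA with any 2 bases between them. It was in 2 of the 135 (1.48%) and in 1.08% of all, so unlike TAATTA it showed no clear excess in receptor promoters. This difference was not tested. A match is a description of the letters and not a bound site.

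In 3 members a summit of any list lay within 1 kb of the annotated start, and their 250 bases before the start are shown, 5′ to 3′ on the strand of the gene, with the half-site in capitals on whichever strand it was found. OR4D6 (chr11:59456711-59456960, plus strand, build GRCh38.p14) has the KQ summit 565 bp before its start, outside the bases shown, and 1 half-site. OR10A2 (chr11:6862807-6863056, plus strand) has a summit of wild-type library 2 (fold 5.12) 156 bp after its start and no half-site. OR9Q1 (chr11:58023631-58023880, plus strand) has a summit of the same library (fold 4.37) 953 bp after its start and no half-site.
OR4D6: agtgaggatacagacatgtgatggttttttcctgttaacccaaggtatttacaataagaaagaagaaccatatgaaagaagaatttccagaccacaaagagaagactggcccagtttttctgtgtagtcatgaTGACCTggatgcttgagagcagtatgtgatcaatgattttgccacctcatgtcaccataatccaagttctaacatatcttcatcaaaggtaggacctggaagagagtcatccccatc
OR10A2: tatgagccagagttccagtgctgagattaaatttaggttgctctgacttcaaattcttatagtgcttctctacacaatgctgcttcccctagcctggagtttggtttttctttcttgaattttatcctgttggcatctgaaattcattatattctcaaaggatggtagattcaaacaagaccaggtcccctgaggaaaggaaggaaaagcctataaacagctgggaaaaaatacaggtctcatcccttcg
OR9Q1: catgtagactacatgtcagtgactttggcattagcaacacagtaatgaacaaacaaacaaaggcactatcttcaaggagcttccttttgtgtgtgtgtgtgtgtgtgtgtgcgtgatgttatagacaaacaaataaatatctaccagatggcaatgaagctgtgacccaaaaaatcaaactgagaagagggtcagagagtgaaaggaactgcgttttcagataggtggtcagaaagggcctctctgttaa
Each of these summits was called in 1 list, and their GC content of 40.4%, 40.4% and 41.2% lies within the range between the quartiles of the receptor promoters, 31.2% to 41.8%.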

How the data were processed

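Reads were mapped to hg38 with Bowtie2 (version 2) and peaks called with MACS2, per the submitters' processing notes. Not given in the sources used here: caller settings, any use of input and the handling of reads that map to several places. The deposited lists give, per peak, the authors' fold enrichment (a ratio) and −log10 of the q-value, with a lowest −log10 q of 1.30. The deposited summit offset is in bp from the peak start. From these, summits were assigned to RefSeq gene spans extended by 50 kb, windows were merged for densities, and overlap meant at least 1 bp. Libraries, not peaks or genes, were the unit of each test. The planned log2 density ratio has no value where a library has 0 peaks, so it was taken over the wild-type libraries and the test over densities of all 4 and of the wild-type libraries alone. The difference in counts likewise replaced their log2 ratio. Members, lists and tests were chosen with earlier results of these data known. Genes were named by a rule: nearest to the 10 highest-fold pooled wild-type peaks, nearest to a KQ peak, with a summit inside or within 1 kb, or among the 5 with most peaks (OR2AT4 and the 3 genes with 2; the 25 tied for the fifth place at 1 peak were not named for it), plus list members given as examples. Alternatives covered the window, the q threshold, the reference genes and each library. Scripts were tested on simulated data (Python 3.11.15, pandas 2.3.3, NumPy 2.4.6, SciPy 1.17.1). No genome was used, so peak sequences were not read.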

Additional observations from a re-analysis of the deposited data

How the results depend on the processing

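The difference in peak counts between wild type and KQ ran from 5.5 to 18 peaks over 13 alternatives (against 12), and that of the share of the chromosome's peaks from 0.64 to 1.64 points (against 1.39). Their direction says nothing of stability, since both KQ libraries are at 0 except with 100 kb windows, where the shares were 2.14% and 1.25% (exact permutation p = 1), and the pooled lists had the opposite order (1.26% and 1.68%). The low density of receptor windows in wild type kept its direction under all 15 alternatives (log2 ratio -2.65 without OR2AT4 to -0.95 against stretches far from genes, against -2.13). This ratio is taken over the wild-type libraries, so the alternatives without a KQ library could not change it. Those without a wild-type library give the value of the other one. Leaving out OR2AT4, the stretches far from genes, the other-gene windows without shared parts, and tests over the wild-type libraries alone were chosen after seeing the data. No p passed 0.05, which this number of libraries cannot give. The median log2 fold difference had no stable sign: it was -0.20 with 10 kb windows, -0.031 with 100 kb windows, -0.011 with −log10 q of at least 2, -0.14 without shared windows, -0.010 without members between 48 and 56 Mb, -0.013 against short genes and -0.11 without OR2AT4, and it ran from -0.13 to 0.15 with each library left out. The difference in the share of genes with a pooled wild-type peak (-54.7 points) became -37.4 with 10 kb windows, -44.8 with 25 kb, -19.4 with the list shortened to the KQ length, -37.5 with peaks found in both libraries and -34.7 when such peaks had to overlap by at least 50% of their length. For KQ (-12.9 points) it was -6.25 with 10 kb, -19.9 with 100 kb, and -1.59 and -1.15 with peaks found in both libraries by either overlap. Fewer peaks or smaller windows lower both shares by construction. With a replicate block over the same-numbered libraries the count difference stayed 12 and the share difference 1.39 points (exact sign-flip permutation p = 0.5 for 2 pairs), and deviations of same-numbered libraries had a correlation of -0.03 over 2722 bins of 1 Mb, so the libraries share a number and no shown pairing. The 0 to 14 peaks per library limit every comparison of the receptor windows.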
